A study of Sus scrofa with 10 samples.

Results

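In the E50 library of the pig medial entorhinal cortex (MEC), 420 of 5506 cells carried at least 3 UMIs of LHX9 and at least 3 UMIs of TCF7L2 with at most 1 UMI of GAD1 and GAD2 together. These cells, called the LHX9/TCF7L2 cells here, made up 7.63% of the library (exact Clopper-Pearson 95% confidence interval, CI, 6.94 to 8.36%). A UMI is a tag that marks 1 captured RNA molecule, so that copies made by PCR are counted once. The cells were chosen by these counts, so the levels of LHX9, TCF7L2, GAD1 and GAD2 describe the choice and are not results. The series held 28229 cells from 10 libraries of untreated pig brains, labelled as entorhinal cells, and they were whole cells at E50 (1 library, E50_1), E60 (3 libraries), E70 (3 libraries) and in the adult (1 library), or nuclei at E70 and in the adult (1 library each). E is the embryonic day. E50_1 pooled 3 brains and is the only library of its day, so nothing in it has a replicate check, and no test was made between its cells. Intervals below cover the counting error of this library alone.

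LHX9 is a LIM homeodomain transcription factor that is known from neurons of the developing thalamus, dorsal midbrain and other regions. TCF7L2 is a transcription factor of the Wnt pathway that pairs with beta-catenin, and in neurons it is best known from the thalamus, habenula and dorsal midbrain. GAD1 and GAD2 make the transmitter GABA, so a limit on them keeps most GABAergic neurons out. POU4F2, a POU domain factor, is known from projection neurons of the retina and the dorsal midbrain, and EN2, a homeodomain factor, from the midbrain and hindbrain. On Sscrofa11.1, the RefSeq annotation places LHX9 at chr10:20742323-20764006, TCF7L2 at chr14:123343695-123547332, POU4F2 at chr8:82044443-82046377 and EN2 at chr18:2781977-2788441.

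The LHX9/TCF7L2 cells had a median of 7368 UMIs and 3091 genes, and the medians of the other neuron classes of the library were 7850 to 8868 UMIs. Drawn down at random to 3000 UMIs, which every cell of the library reached, they had a median of 1703.5 genes, against 1718 in cortical glutamatergic cells. LHX9 ranged from 3 to 30 UMIs in a cell, with a median of 9. TCF7L2 ranged from 3 to 60 UMIs, with a median of 14. A single GAD1 or GAD2 UMI was seen in 28 of the cells and none in the rest.

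**Figure D1:**
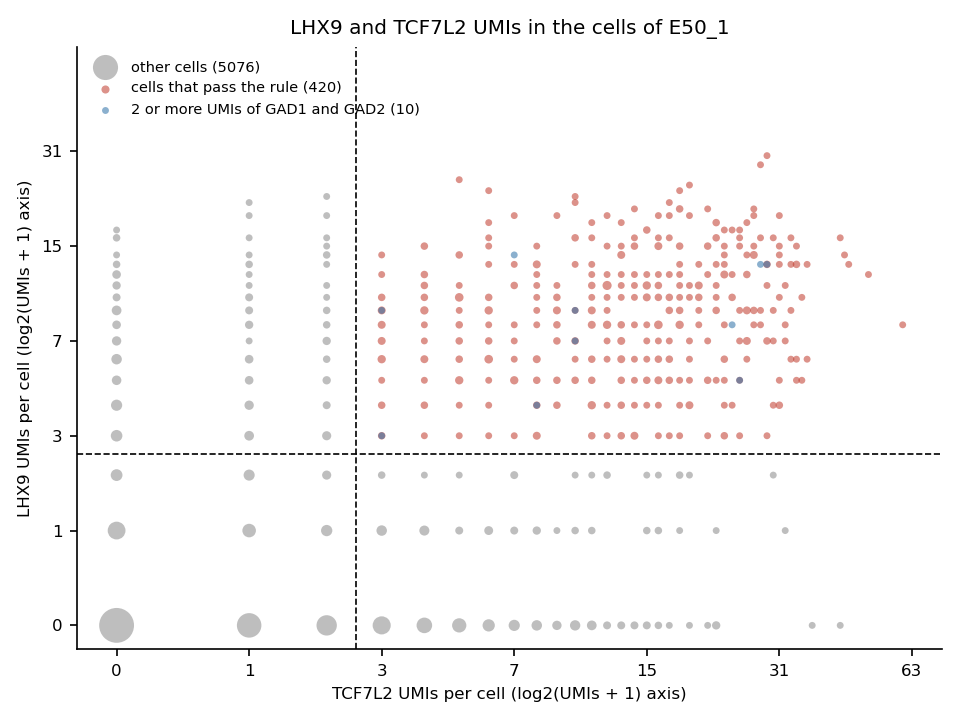
LHX9 against TCF7L2 UMIs in each cell of E50_1, on log2(UMIs + 1) axes, with the area of a point growing with the number of cells at that pair of counts and dashed lines at the minimum of 3 UMIs. The 420 cells that passed the rule fill the upper right, with 10 cells of 2 or more GAD1 and GAD2 UMIs among them, and most other cells lie at or near 0 for LHX9.

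The edge of the rule did not fall in a gap. For TCF7L2, 22 of the cells were at 3 UMIs and 31 cells just outside at 2. For LHX9 these numbers were 25 and 16. In 45 of the cells LHX9 or TCF7L2 was at exactly 3 UMIs, and 53 cells just outside had 2 UMIs of one or both and met the rest of the rule. NDST4 was at 659 CPM inside and 252 CPM just outside, TFAP2D at 755 and 452 CPM, and EBF1 at 266 and 457 CPM. CPM are the UMIs of a gene summed over the cells of a class and scaled to a common total of UMIs. The cells just outside were 18 other SLC17A6 cells, 23 cells of no named class and 12 of 5 other classes. A further 10 cells had enough LHX9 and TCF7L2 but 2 or more GAD1 and GAD2 UMIs.

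Panneuronal genes were nearer to the level of cortical neurons than to that of progenitors. STMN2, a tubulin-binding protein of growing axons, was at 3259 CPM and had a UMI in 100% of the cells, against 3926 CPM in cortical glutamatergic cells and 222 CPM in progenitors. TUBB3, the neuronal tubulin, was at 5109.5 CPM, against 5408 and 536 CPM. DCX, a microtubule protein of young neurons, was at 172, 259 and 23.8 CPM. The progenitor class allowed at most 1 DCX UMI in a cell, so its low DCX level is not a finding. That limit keeps most neurons out of the class, so its low STMN2 and TUBB3 levels partly follow from the choice too. Cell cycle and progenitor genes were low. SOX2 was at 12.6 CPM, against 535 CPM in progenitors, and TOP2A, which untangles DNA before division, was at 20.9 against 357 CPM. SOX2 is a marker of the progenitor class, so its high level there is not a finding.

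SLC17A6, the vesicular glutamate transporter of most subcortical and young cortical neurons, had a UMI in 281 of the 420 cells (66.9%, CI 62.2 to 71.4%). Its level was 161 CPM (CI 148 to 175). Microglia, which should lack it, had 7.28 CPM and a UMI in 6.72% of cells at a median of 11387.5 UMIs. SLC17A7 and SLC17A8, the other two transporters, were at 0.86 and 1.4 CPM. SLC32A1, the vesicular transporter of GABA and glycine, was at 0.57 CPM, against 125 CPM in GABAergic cells. The rule limits GAD1 and GAD2, and GABA markers chose the GABAergic class, so this contrast is not a finding. The transmitter genes of dopamine, serotonin and acetylcholine neurons were near 0 as well, with TH at 3.1, TPH2 at 1.1 and CHAT at 0.57 CPM. The label of neurons matched the measured STMN2, TUBB3 and SLC17A6.

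Of the 2 markers that had no part in the rule, POU4F2 had a UMI in 168 cells (40.0%, CI 35.3 to 44.9%) and EN2 in 133 cells (31.7%, CI 27.2 to 36.4%). In 54 and 11 cells they reached 3 UMIs. POU4F2 was at 107 CPM (CI 96.1 to 118), against 45.7 CPM in other SLC17A6 cells, 11.4 CPM in the cells of no named class and 0 to 1.4 CPM in the other 6 classes. EN2 was at 54.0 CPM (CI 46.6 to 62.3), which overlapped the 50.7 CPM (CI 44.9 to 57.0) of GABAergic cells, and was at 38.6 CPM in the cells of no named class. EN2 thus did not set these cells apart, while POU4F2 was highest in them among the classes. POU4F2 was shared with other LHX9 cells. It was at 71.6 CPM (CI 59.3 to 85.7) in 182 cells with 3 or more LHX9 but fewer than 3 TCF7L2 UMIs. In the 31 of these with 2 TCF7L2 UMIs it was at 98.6 CPM (CI 66.5 to 141), which overlapped the LHX9/TCF7L2 cells. Both genes had a UMI in 50 cells, EN2 alone in 83, POU4F2 alone in 118 and neither in 169.

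The first comparison set the LHX9/TCF7L2 cells beside the 1630 cortical glutamatergic cells of the same library, which had 3 or more UMIs of NEUROD2 and NEUROD6 together. The LHX9/TCF7L2 cells carried more RNA of the transcription factors TFAP2D, ZFHX3, ZFHX4, POU4F2 and FOXP2, of NDST4 and of RELN. They carried less of NEUROD6, FEZF2, SOX5, EPHA3 and EPHA5. Of 5603 genes with a UMI in at least 25% of the cells of either class, 60 (1.07%) were higher and 59 (1.05%) lower by 4-fold or more on (CPM + 5), together 2.12% of the genes. LHX9, TCF7L2, NEUROD2 and NEUROD6 chose the classes and are not findings here.

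NDST4, an enzyme that modifies heparan sulfate chains, had the highest ratio of all genes outside the rule. It had 3417 UMIs in the LHX9/TCF7L2 cells, or 977 CPM (CI 945 to 1010.45), with a median of 6 and a highest count of 44 UMIs in a cell. Cortical glutamatergic cells had 13.5 CPM, which gave a ratio of 53.0, and no class outside the SLC17A6 cells was above 41.7 CPM. The study named NDST4 and LHX9 together from these same libraries, so NDST4 is not independent evidence.

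The transcription factors with the highest ratios were ZFHX3, ZFHX4, TFAP2D, POU4F2 and FOXP2. ZFHX3 and ZFHX4 are large zinc finger homeodomain proteins. ZFHX3 was at 588 CPM against 19.7 CPM in cortical cells (ratio 24.0) and ZFHX4 at 462 against 15.1 CPM (ratio 23.3). ZFHX3 had a UMI in 96.4% of the LHX9/TCF7L2 cells and ZFHX4 in 86.7%. TFAP2D, an AP-2 factor, was at 1204 CPM (CI 1168 to 1241) against 54.2 CPM (ratio 20.4), with a median of 7 and a highest count of 61 UMIs in a cell. POU4F2 had a ratio of 17.4 and FOXP2, a forkhead factor, of 13.5, at 216 against 11.4 CPM. FOXP2 and POU4F2 were patchier than ZFHX3, ZFHX4 and TFAP2D, with a UMI in 53.3% and 40.0% of the cells.

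Several genes of surface proteins, channels and signalling were also among the 25 highest. RELN, the secreted glycoprotein of the reelin pathway, was at 517 CPM (CI 493 to 541) against 76.4 CPM, a ratio of 6.41, and had a UMI in 326 cells (77.6%). ROBO2, a receptor for SLIT guidance cues, was at 881 against 123 CPM, and NTNG1, a membrane-bound netrin, at 695 against 99.3 CPM. NEGR1, a neuronal adhesion protein, was at 1035 against 163 CPM, PCDH17, a protocadherin, at 507 against 67.2 CPM, and CDH7, a cadherin, at 171 against 23.4 CPM. KCNH5, a potassium channel, was at 74.9 against 7.54 CPM, and GFRA2, a receptor of the GDNF family, at 116 against 7.15 CPM. MAML3, a coactivator of Notch signalling, was at 597 against 79.1 CPM. Also among the 25 highest were ZBTB7C, CXXC4, MPPED2, SPP1, TMEM176B, RGS8, VSTM2L, EN2 and GLIS3, with ratios of 6.12 to 10.5. A gene with no symbol was also among the highest and is not described here.

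These 25 genes were not all particular to the LHX9/TCF7L2 cells within the library. In 22 of 25 the level was above that of all 8 other classes, and the exceptions were SPP1, TMEM176B and GLIS3. RELN was at 498 CPM in the cells of no named class, close to its level in the LHX9/TCF7L2 cells. SPP1, a secreted phosphoprotein of microglia and other cells, rested on a few cells, as 12 of the 420 cells also met the rule for erythroid cells, microglia or vascular cells. With these 12 cells SPP1 was at 269.9 CPM with a ratio of 6.73, and without them at 45.2 CPM with a ratio of 1.23, while NDST4 was at 1025 and TFAP2D at 1256 CPM. This check was chosen after the data were seen.

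**Figure D2:**
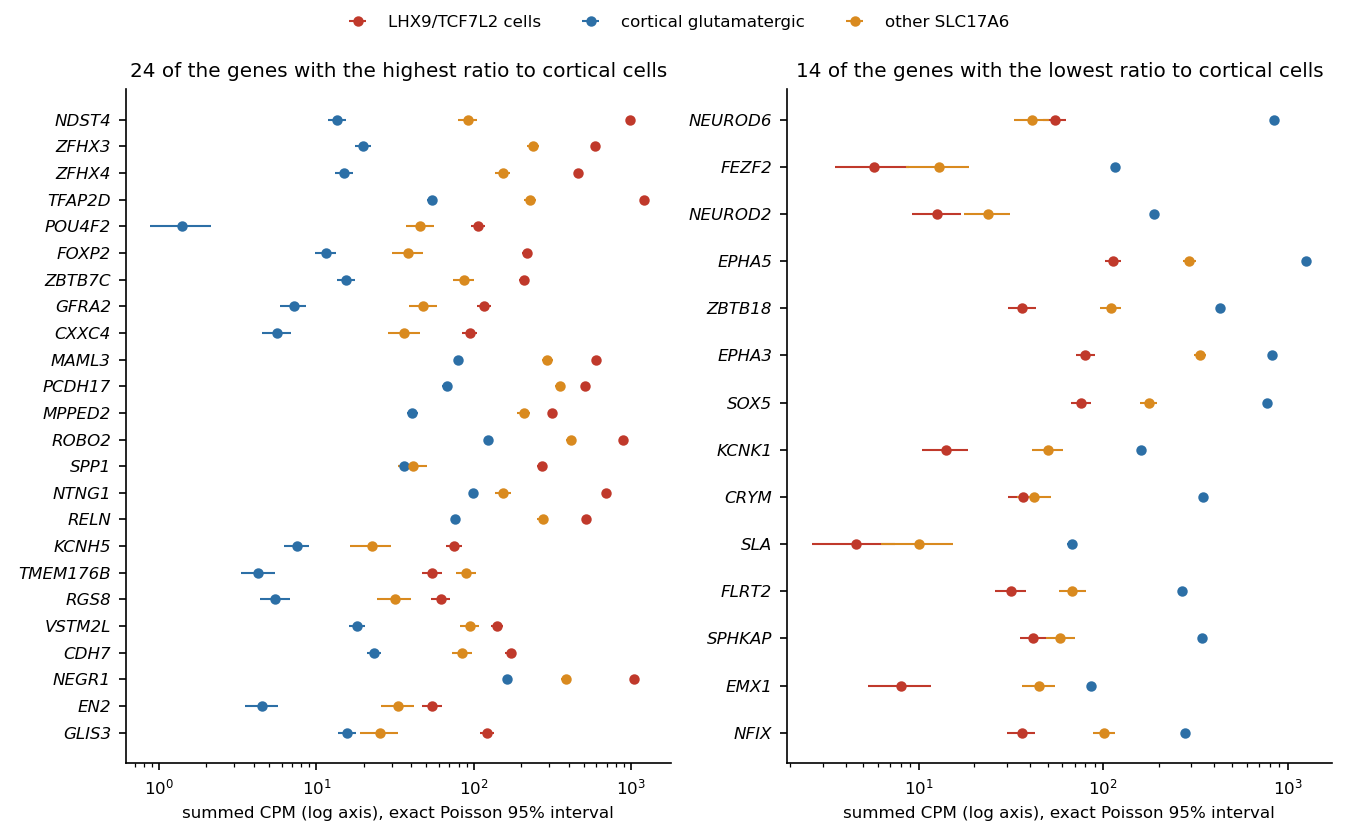
Summed CPM with exact Poisson 95% intervals, on log axes, of 24 of the genes with the highest and 14 of those with the lowest ratio between LHX9/TCF7L2 cells (red) and cortical glutamatergic cells (blue), with other SLC17A6 cells in orange. Other SLC17A6 cells lie between the other 2 classes for most genes on the left, with TMEM176B higher in them than in the LHX9/TCF7L2 cells, and near the LHX9/TCF7L2 cells for NEUROD6 and CRYM on the right.

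Genes of cortical projection neurons were among those with the lowest ratios. FEZF2, a factor of deep-layer neurons, was at 5.72 against 115 CPM, and SOX5, a factor of early born deep-layer neurons, at 75.8 against 772 CPM. EMX1, a homeodomain factor of the dorsal telencephalon, was at 8.01 against 86.1 CPM, and ZBTB18, a repressor of cortical development, at 36.3 against 429 CPM. EPHA5 and EPHA3, receptors for ephrin-A, were at 113 against 1262 CPM and at 80.1 against 829 CPM. KCNK1, CRYM, SLA, FLRT2, SPHKAP and NFIX were also among the 15 lowest, with ratios of 0.115 to 0.145, as were NEUROD6 and NEUROD2, which chose the cortical class. BCL11B, a zinc finger factor of subcerebral neurons, differed from these, at 49.8 CPM in the LHX9/TCF7L2 cells and 52.3 CPM in cortical cells. RORB, a nuclear receptor of a middle cortical layer and of other regions, was at 37.7 and 58.4 CPM.

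Part of the low cortical level came from a few cells. Of the 420 cells, 17 also had 3 or more UMIs of NEUROD2 and NEUROD6. Without these and the 12 cells above, 28 cells in all, SOX5 was at 32.3 and EPHA5 at 50.6 CPM. Microglia had SOX5 at 70.03 CPM and EPHA5 at 93.0 CPM, so that these levels were not above those of microglia. The level of background RNA was not estimated. A doublet caller marked 17 of the 420 cells (4.05%) and 108 of the 5506 cells (1.96%). It marked 3524 of 11012 simulated pairs of cells (32.0%), so these shares can miss many doublets.

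**Figure D3:**
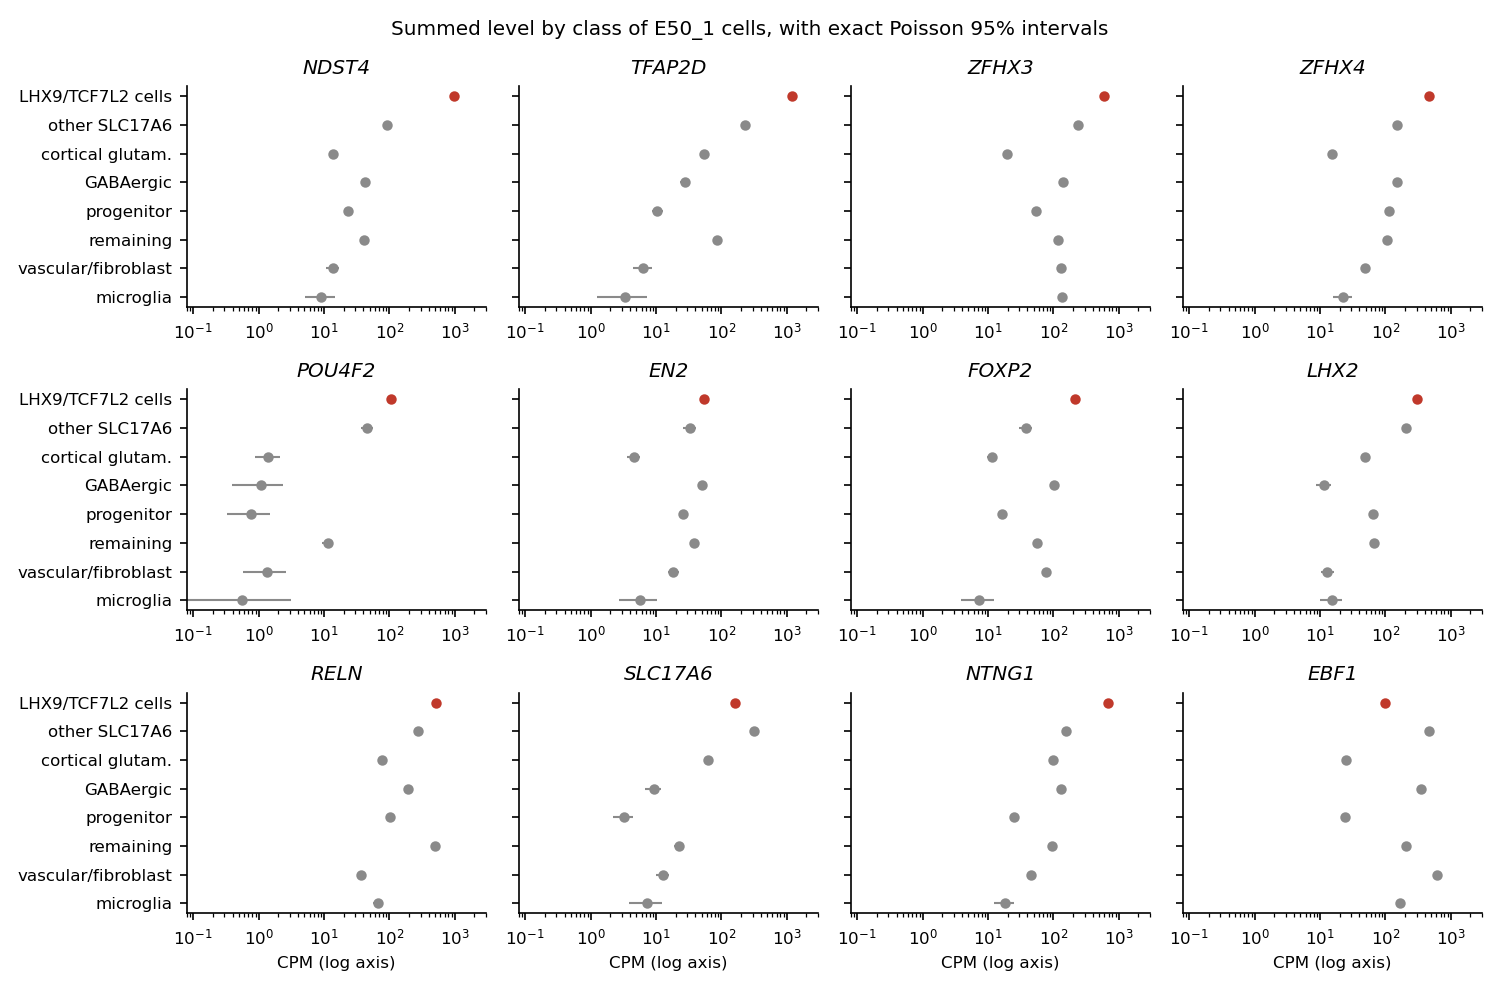
Summed CPM with exact Poisson 95% intervals, on log axes, of 12 genes in 8 of the 9 classes of E50_1, with the LHX9/TCF7L2 cells in red. NDST4, TFAP2D, ZFHX3, ZFHX4, POU4F2, FOXP2 and NTNG1 are highest in the LHX9/TCF7L2 cells, EN2 and RELN are matched by another class, and SLC17A6 and EBF1 are higher in other SLC17A6 cells.

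The second comparison was with the 215 other SLC17A6 cells, which had 2 or more UMIs of SLC17A6 and met no earlier rule. Fewer genes stood apart from these cells than from cortical cells. NDST4, TFAP2D, FOXP2, NTNG1, TACR1 and GLIS3 were higher in the LHX9/TCF7L2 cells, and EBF1, EBF2, SST, NR2F1 and CRABP1 lower. Of 5588 genes measured in at least 25% of the cells of either class, 11 (0.197%) were higher and 9 (0.161%) lower by 4-fold or more, together 0.358%. SLC17A6 itself chose the comparison class and was left out of this reading, and LHX9 and TCF7L2 were not among the genes compared. Of the 11 higher genes, 2 have no symbol and are not described.

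NDST4 was at 91.4 CPM in other SLC17A6 cells, a ratio of 10.2, and TFAP2D at 227 CPM, a ratio of 5.21. FOXP2 was at 38.1 CPM (ratio 5.13) and NTNG1 at 153 CPM (ratio 4.43). TACR1, the receptor for substance P, was at 152 against 25.7 CPM. GLIS3, a zinc finger factor, was at 121 against 25.2 CPM, and MCUB, a subunit of the mitochondrial calcium channel, at 73.8 against 14.3 CPM. CNTN4, a contactin of axons, was just short of 4-fold, at 380.3 against 91.9 CPM. ZFHX3 at 238 CPM, ZFHX4 at 153 CPM, LHX2 at 207 CPM and RELN at 274 CPM were less than 4-fold apart from the LHX9/TCF7L2 cells. SPP1 and HBB, the beta chain of hemoglobin, were also past 4-fold, with HBB at 3366 against 798 CPM (and 836 CPM in cortical cells, a ratio of 4.01), and the 12 cells with erythroid, microglial or vascular genes carried both. Without them HBB was at 819.98 CPM with a ratio of 1.03, and PECAM1, an endothelial marker, at 10.4 in place of 42.3 CPM.

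Among the genes lower than in other SLC17A6 cells, EBF1 and EBF2, helix-loop-helix factors of young neurons, were at 98.1 against 461 CPM and 50.04 against 255 CPM. NR2F1, a nuclear receptor of cortical area patterning, was at 21.2 against 134 CPM. SST, the peptide somatostatin, was at 76.6 against 374 CPM, and CRABP1, which binds retinoic acid, at 91.5 against 837 CPM. CDH8, BNC2 and PDE1C had ratios of 0.178 to 0.245, and EPHA3 of 0.250. EBF1, EBF2, SST, BNC2 and PDE1C were past 4-fold by little. With a minimum of 2 UMIs in the rule, which let in 53 more cells, their ratios were 0.333, 0.318, 0.432, 0.319 and 0.252.

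In the gene lists a gene counts as measured where at least 25% of the cells of either class had a UMI of it. A gene that is high in 1 class can enter through that class alone, so the counts below describe the lists and support no direction. The list of transcription factors of dorsal midbrain glutamatergic neurons had 25 genes in the files. Of these, 8 were measured against cortical cells, and 6 were higher by 4-fold or more (POU4F2, TFAP2D, LHX2, MEIS1, ZFHX3 and ZFHX4) with none lower. Of the 6, LHX2 alone also had a UMI in 25% of the cortical cells. Against other SLC17A6 cells 10 of these genes were measured, with TFAP2D higher, and EBF1 and EBF2 lower. LHX2, a LIM homeodomain factor like LHX9, was at 301 against 48.3 CPM in cortical cells, and MEIS1, a TALE homeodomain factor, at 126 against 24.97 CPM. BARHL1, a homeodomain factor with a UMI in 20% of the cells, was at 33.5 CPM, against 9.0 CPM in other SLC17A6 cells and at most 3.8 CPM in any other class. LHX1 and LHX5 were at 1.4 and 0.57 CPM, and their highest levels, 121 and 30.4 CPM, were in GABAergic cells.

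Genes of midbrain patterning were mostly low. The list had 14 genes in the files, of which EN2 alone was measured and higher against cortical cells. PAX3 and PAX7, paired box factors of dorsal progenitors, were at 3.7 and 5.4 CPM, against 66.4 and 26.3 CPM in progenitors. OTX2, a homeodomain factor of the forebrain and midbrain, was at 5.1 CPM. Genes of thalamic neurons gave a mixed picture, with FOXP2 and NTNG1 higher and NR2F1 lower of 4 measured against cortical cells. LEF1, a partner of TCF7L2 in the Wnt pathway, was at 68.9 CPM against 123 CPM in other SLC17A6 cells and 10.2 CPM in cortical cells. RORA, SHOX2 and CALB2, also of this list, were at 21.7, 20.3 and 76.6 CPM. Of 18 genes of the hindbrain and cerebellum, 1 was measured and none was past 4-fold. The 11 genes of retinal and pineal cells were in the files but none was detected in 25% of either class, and they summed to 34.9 CPM, against 13.8 CPM in cortical cells and 69.03 CPM in other SLC17A6 cells.

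Several genes that would bear on these lists could not be read. POU4F1 had 1 UMI, HES5 had 9, OLIG2 had 14, NEUROG2 had 9 and EN1 had 13 in all 28229 cells. In all, 29 of the listed genes had 30 or fewer UMIs in the series, and nothing was drawn from their absence.

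The list of telencephalic factors had 17 genes, of which 11 were measured against cortical cells. EMX1, FEZF2 and SOX5 were among the lower genes, with NEUROD2 and NEUROD6 that chose the cortical class, and none was higher. EMX1, FEZF2 and SOX5 were measured through the cortical cells alone, with a UMI in 6.19%, 2.86% and 22.4% of the LHX9/TCF7L2 cells. So were NEUROD2 and NEUROD6, at 7.38% and 19.8%. Against other SLC17A6 cells 5 were measured and none was past 4-fold. The reelin pathway had 8 genes and 6 measured, and RELN alone was past 4-fold against cortical cells. DAB1, the adaptor that relays the reelin signal, was at 322 against 536 CPM, and the receptors LRP8 and VLDLR were at 64.1 and 17.7 CPM against 103 and 14.2 CPM. Of 9 genes that the study tied to another RELN cluster of these libraries, 8 were measured. SOX5 and TCF4 were lower, with SOX5 again measured through the cortical cells alone. RUNX1T1, EYA2, FOXP1, MEF2C, RORB and EPHA6 were not past 4-fold. TCF4, a helix-loop-helix factor, was at 269.9 against 1600 CPM.

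Axon guidance genes went both ways, and the counts and median of this list support no direction. EPHA3, with a UMI in 22.4% of the LHX9/TCF7L2 cells, was measured through the cortical cells alone. Of 26 measured, ROBO2 and NTNG1 were higher and 8 were lower than in cortical cells (SLIT2, EPHA3, EPHA5, EPHA7, EFNB2, SEMA3C, PLXNA2 and PLXNA4), with a median log2 ratio of -0.85, against -0.02 for all genes measured. The ephrin receptors did not differ as 1 group, as EPHA6 was at 291 against 78.6 CPM. SLIT2, a ligand of the ROBO receptors, was at 46.0 against 213 CPM, the opposite of ROBO2. Cadherins and other adhesion genes were split, with CDH7, PCDH17, CNTN3, CNTN4 and CNTN5 higher and CDH8, CDH12 and PCDH9 lower of 19 measured. Against other SLC17A6 cells NTNG1 was higher and no gene lower of 21 measured guidance genes, and CDH8 was lower of 19 measured adhesion genes.

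Receptor subunits also differed by gene. Of 11 genes of glutamate transmission measured against cortical cells, GRIA3 was lower, at 20.02 against 102 CPM, and none was higher. Among 5 measured genes of GABA and glycine transmission, GABRA2, a subunit of the GABA-A receptor, was lower, at 30.9 against 147 CPM. GABRB2, a beta subunit of that receptor, was at 154 against 52.9 CPM. Against other SLC17A6 cells no gene of either list was past 4-fold.

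Other lists held few genes that were measured in enough cells. Of 18 genes of the general neuronal state that were measured, none was past 4-fold in either comparison. Of 3 Wnt genes measured against cortical cells and 4 against other SLC17A6 cells, none was past 4-fold. Of 6 LIM cofactors measured against cortical cells, LMO4 was lower, at 36.6 against 178 CPM. Among peptides and calcium-binding proteins, of which 1 and 2 were measured, SST was lower than in other SLC17A6 cells. Of 3 immediate early genes, 2 progenitor and cycle genes and 1 astroglial gene measured against cortical cells, none was past 4-fold, and no gene of the monoamine and acetylcholine list or the oligodendroglial list was measured. The 8 microglial markers summed to 73.8 CPM, against 34.0 CPM in cortical cells and 35.7 CPM in other SLC17A6 cells, and the 9 vascular and fibroblast markers to 224, 135 and 75.2 CPM. These classes were left out of the comparison classes but not of the LHX9/TCF7L2 cells.

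TCF7L2 split the LHX9 cells of the library. A further 182 cells had 3 or more LHX9 UMIs but fewer than 3 of TCF7L2, and of these 82 were other SLC17A6 cells, 76 of no named class and 18 cortical. They had RELN at 480 CPM, near the 517 CPM of the LHX9/TCF7L2 cells, and LHX2 at 321 CPM, near 301 CPM. NDST4 was at 152 CPM in them (CI 134 to 172), TFAP2D at 315 CPM (CI 288 to 343) and FOXP2 at 55.4 CPM, all lower than with TCF7L2. EBF1 was at 515 CPM (CI 481 to 550), against 98.1 CPM with TCF7L2, and TFAP2B, another AP-2 factor, at 117 against 6.9 CPM. The TFAP2B level rested on few cells, as 12.6% of the 182 cells had a UMI of it. In the 107 of these cells with no TCF7L2 UMI, NDST4 was at 65.6 and EBF1 at 633 CPM.

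Cells with 3 or more TCF7L2 UMIs but fewer than 3 of LHX9 were mostly not neurons by the class rules. There were 533 of them, 12.9% with an LHX9 UMI, of which 266 were progenitors and 142 vascular cells or fibroblasts. They had STMN2 at 488 CPM, SOX2 at 228 CPM, NDST4 at 29.4 CPM and POU4F2 at 3.6 CPM. For NDST4, at 659 CPM (CI 585 to 740), and EBF1, at 266 CPM (CI 220 to 319), the cells just inside the rule lay between all LHX9/TCF7L2 cells and the LHX9 cells without TCF7L2. For LEF1, at 229.6 CPM (CI 187 to 279), they were above all LHX9/TCF7L2 cells, at 68.9 CPM. They overlapped the other LHX9 cells, at 179 CPM (CI 160 to 201). The LEF1 level rested on few cells, as 26.7% of these 45 cells had a UMI of it. For LHX2, at 232 CPM (CI 189 to 282), they lay below both, at 301 CPM (CI 283 to 319) and 321 CPM (CI 294 to 349).

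The LHX9/TCF7L2 cells were not uniform. Among listed genes with a UMI in 20 to 80% of them, the 10 with the highest variance for their mean, at 3000 UMIs a cell, were VIM, EPHA5, PCP4, GRM8, DAB1, RELN, CNTNAP2, PCDH17, EBF1 and PCDH9. Their variance was 2.63 to 3.95 times the mean. RELN had a UMI in 77.6% of the cells and from 0 to 30 UMIs in a cell, while EBF1 had a UMI in 23.6%. LHX2 was next in that order and had from 0 to 27 UMIs. The 28 cells that also met the cortical, erythroid, microglia or vascular rule were kept in this ranking, and EPHA5 was at 113 CPM with them and 50.6 CPM without them. Their part in the variance of the other genes was not tested.

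LHX2 ran with one set of genes and against another. The split by LHX2 was chosen after its values were seen and carries no test. There were 164 cells with no LHX2 UMI, 120 with 1 or 2 and 136 with 3 or more, at medians of 7021, 7956 and 7423.5 UMIs. TFAP2D was at 1801, 1038 and 729 CPM in these groups, CNTN3 at 346, 220 and 80.7 CPM, and GRM5, a metabotropic glutamate receptor, at 503, 374 and 241 CPM. The intervals of these values did not overlap between neighbouring groups. FOXP2 at 300.3, 197 and 145 CPM and GRIA2, an AMPA receptor subunit, at 747, 503 and 368 CPM ran the same way. EPHB1, an ephrin-B receptor, was at 147, 198 and 360 CPM, EBF1 at 36.5, 85.4 and 175 CPM and LMO3, a LIM-only cofactor, at 38.1, 56.3 and 155 CPM, in the opposite order. RELN was at 368, 563 and 630.4 CPM. LHX9 itself was at 1152, 1070.4 and 1205 CPM, and EN2 was at 45.4, 47.2 and 69.6 CPM. Across the 420 cells, which share 1 library, Pearson's r of log values was 0.37 between LHX2 and EPHB1, -0.37 between LHX2 and CNTN3 and -0.09 between EN2 and POU4F2, given as a description.

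**Figure D4:**
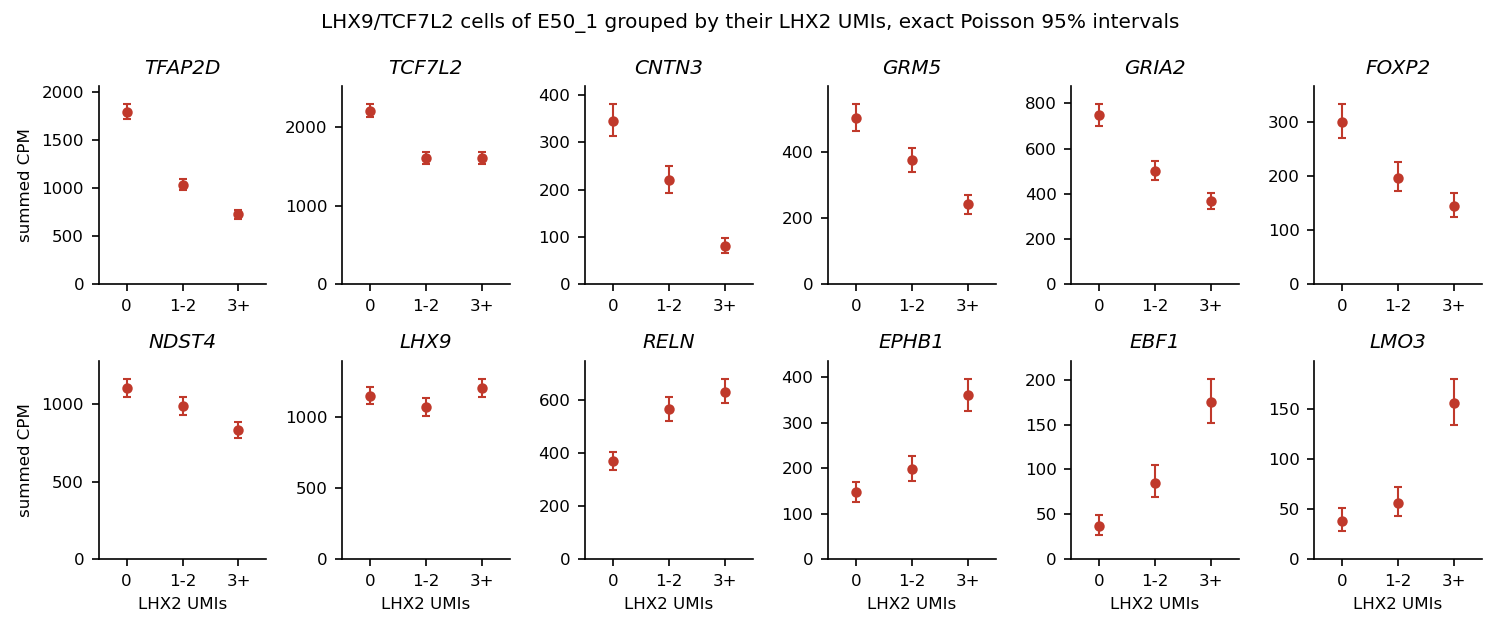
Summed CPM with exact Poisson 95% intervals, on axes that start at 0, of 12 genes in the LHX9/TCF7L2 cells with 0, 1 or 2, and 3 or more LHX2 UMIs. TFAP2D, CNTN3, GRM5, GRIA2, FOXP2 and NDST4 are lower with more LHX2, and RELN, EPHB1, EBF1 and LMO3 higher. TCF7L2, a gene of the rule like LHX9, is highest in the cells with no LHX2 UMI, and LHX9 lies between 1070.4 and 1205 CPM.

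Unsupervised clusters of E50_1, made without the genes of the rule, placed most of the cells together. Of 31 clusters, 1 held 329 of the 420 cells (78.3%), and these made up 87.3% of its 377 cells. A second cluster held 61 of them among 267 cells, beside 80 other SLC17A6 cells and 103 of no named class. With all listed genes left out as well, 317 of the cells (75.5%) still shared a cluster. In the second cluster the cells had LHX2 at 748 CPM against 252 CPM in the first, EBF1 at 337 against 27.3 CPM, LMO3 at 359 against 38.8 CPM and NDST4 at 422 against 1205 CPM. LHX9 was at 1393 and 1242 CPM, and POU4F2 at 91.3 and 118 CPM. These are values of clustered cells and carry no test.

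In the other 9 libraries 16 cells passed the rule. There were 10 of 8171 cells in E60_1 (0.122%), 1 of 3479 in E60_2, 4 of 617 in E70_2 (0.648%, CI 0.177 to 1.65%) and 1 of 737 in Adult_1. E60_3, E70_1, E70_3 and both libraries of nuclei had none. The rule counts raw UMIs, and depth differed between libraries. The median was 690 UMIs in the adult nuclei, 2616 in the E70 nuclei and 4251 in E60_1, against 8469 in E50_1. The limits below cover cell number alone, and the effect of depth was not tested. A limit of 3 cells in the library, used where none was found, allows a share of up to 0.111% in E60_3, 0.609% in E70_1, 0.0962% in E70_3, 0.350% in the E70 nuclei and 0.118% in the adult nuclei, and the upper bounds of the exact intervals of these libraries are somewhat higher, at 0.118 to 0.745%. The 4 cells of E70_2 had a median of 30892.5 UMIs and the cell of Adult_1 had 60089 UMIs, at library medians of 9403 and 6893 UMIs. E70_1 also had 5 cells with both genes but 2 or more GAD1 and GAD2 UMIs. The 10 cells of E60_1 held 26 NDST4, 20 RELN, 7 TFAP2D and 0 POU4F2 UMIs in all, and the 4 of E70_2 held 8, 24, 5 and 0. Each other library shared 2 to 57 cell barcodes with E50_1.

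**Figure D5:**
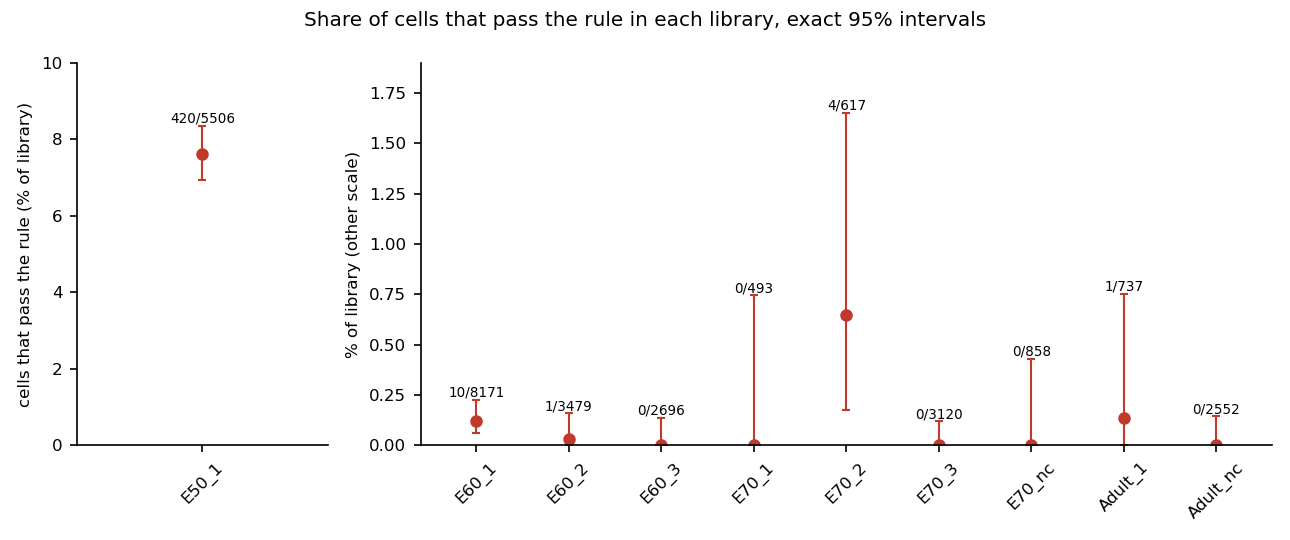
Share of cells that passed the rule in each library, in percent, with exact Clopper-Pearson 95% intervals and the counts above, with E50_1 on its own axis up to 10% and the other libraries on an axis up to 1.9%. E50_1 lies at 7.63% and the other 9 libraries between 0 and 0.648%.

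Replicate libraries of whole cells existed for 2 days alone, E60 and E70. At E60 the mean share of cells that passed was 0.0504% with an SD of 0.0640 over 3 libraries, and at E70 it was 0.216% with an SD of 0.374 over 3 libraries. The difference of 0.166 percentage points was smaller than the SD at E70. A two-sided exact permutation test over the 6 libraries gave p = 1, where the smallest p this design allows is 0.1. The difference rested on E70_2, as it was -0.0504 points without that library and -0.0612 points within the 2 sequencing pools that held both days. In the whole libraries LHX9 was at 105 CPM in E50_1, at 2.3 to 5.4 CPM at E60 and at 24.5, 30.4 and 1.9 CPM at E70. POU4F2 was at 11.0 CPM in E50_1 and at most 1.4 CPM in any other library. EN2 was at 24.1 CPM in E50_1 but at 37.4 CPM in E60_1 and 14.0 CPM in E60_2, where few cells passed the rule. TCF7L2 was at 43.7 to 162 CPM in the other libraries, and 141 of 737 cells of Adult_1 had 3 or more UMIs of it, of which 1 passed. With 1 library at E50 the day cannot be told apart from the library and its tissue sample.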

How the data were processed

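The 10 libraries were made from pig MEC with 10x Genomics chemistry, and the authors mapped the reads with Cell Ranger (2.20 in the submitters' processing notes) to Sscrofa11.1 with introns counted, so that intronic UMIs add to long genes. The authors deposited 1 table of raw UMI counts per library, with 22452 genes. Of 7482 rows named by Ensembl ID, 987 were given a symbol from a name table. Cells of E50_1 were placed in 9 classes by UMI counts of marker genes, in a fixed order with the LHX9/TCF7L2 cells first: erythroid (over 5% hemoglobin UMIs), microglia and vascular or fibroblast (5 UMIs), GABAergic and cortical glutamatergic (3), other SLC17A6 (2), progenitor (3, with at most 1 DCX UMI) and the remaining cells. Counts were summed per class and scaled to CPM, with exact Poisson intervals, and shares have exact Clopper-Pearson intervals, both at 95% and for counting error only. Ratios used (CPM + 5) and genes with a UMI in 25% of the cells of either class, and 4-fold was the size for a call. Named, among genes with a symbol, were the 25 highest and 15 lowest ratios against cortical cells and the 10 highest and 10 lowest against other SLC17A6 cells, beside listed genes. With 1 library no p-value was computed between classes. Doublets were called by the steps of Scrublet, and clusters by Leiden at resolution 1 on 30 components of 2000 genes (scanpy 1.11.5, leidenalg 0.10.2, Python 3.11.15). Called doublets were kept in the main values. The ratio step was tested on simulated data. E60 and E70 shares were compared over libraries by exact permutation. The members and gene lists were chosen with earlier results of these data known. Labels do not say that same-numbered or pooled brains were matched between days, so the p-value covers the spread between these libraries. Results for a few genes are not reported here.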

Additional observations from a re-analysis of the deposited data

How the results depend on the processing

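The number of cells that passed the rule was 375 to 473 under all alternatives, and 48 of the 58 ratios past 4-fold of named genes stayed past it under every alternative, with none reversed. Levels in the LHX9/TCF7L2 cells moved more. Of 336 recomputed levels of named genes, LHX9 and TCF7L2 among them, 137 left the counting interval of the main value. Against cortical cells, thinning each cell to 3000 UMIs gave 39 higher genes in place of 60, with 2225 genes tested. Against other SLC17A6 cells, with 11 genes higher and 9 lower, the lower genes numbered 20 with a mean of CPM over cells, 15 without called doublets, 15 with 3 or more SLC17A6 UMIs in the comparison class, 30 with genes in 5% of cells and 23 without the members that also met the cortical, erythroid, microglia or vascular rule (an alternative added after the data were seen), and thinning gave 6 higher, with fewer genes tested. The E70 minus E60 share was 0.166 points and -0.0612 points within the 2 sequencing pools with both days, and leaving out 1 library gave -0.0504 (without E70 replicate 2) to 0.274 points. With the replicate block (same-numbered libraries paired) it was 0.166 points, exact p = 1, and deviations of same-numbered libraries correlated at -0.115 to 0.0614 across 12937 genes, so the numbers were not taken to pair libraries. It was 1.09 points with a minimum of 2 UMIs and 0.667 points among cells with SLC17A6. Rare cells in libraries of 493 to 617 cells are limited by cell number.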
